A study of Mus musculus with 9 samples.

Results

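The 8 genes described here encode the auxiliary subunits of high-voltage-activated calcium channels, 4 for alpha2delta subunits (Cacna2d1 to Cacna2d4) and 4 for beta subunits (Cacnb1 to Cacnb4). They were taken by gene symbol, and all 8 were found among the 55536 gene identifiers counted in each library. A voltage-gated calcium channel is built around a pore-forming alpha1 subunit. Beta subunits bind its cytoplasmic side, help it reach the cell surface and shape its gating, while alpha2delta subunits sit on the outer face of the membrane, anchored to it, and raise the number of channels at the surface and at nerve terminals. In sensory neurons these channels admit the calcium that triggers transmitter release in the spinal cord, and the alpha2delta-1 and alpha2delta-2 proteins are the binding sites of the pain drugs gabapentin and pregabalin.

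The libraries came from messenger RNA of lumbar dorsal root ganglia, which hold the cell bodies of sensory neurons, of adult C57Bl6 mice. The icKO group (5 libraries) carried an inducible conditional knock-out of Prdm12, a zinc finger transcriptional regulator of nociceptors, and the control group (4 libraries) was labelled wild type. The comparison was made 1 month after tamoxifen, which induces the knock-out, and whether the controls received it too is not stated. The sources used here do not give the Cre driver, the deleted exon or the sex of the mice. They also do not say that each library is a different animal, so p-values reflect library-to-library spread, which could be technical in part. Because whole ganglia were sequenced, fewer cells of a type and less RNA per cell cannot be told apart.

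Library totals ranged from 19607740 to 29481589 counts, so a floor of 3 counts equalled 0.102 to 0.153 CPM (counts scaled for library size, with the trimmed mean of M-values as the factor between libraries). Prdm12 itself was at 22.3 to 26.2 CPM in icKO and 116 to 163 CPM in control, with no overlap (log2 fold change -2.48, SE 0.09, edgeR adjusted p = 2.51e-08), so the targeted transcript followed the labels. Neuronal markers were abundant in every library, with 6 genes summing to 6731 to 8168 CPM. Some libraries stood apart in other markers. Summed over 6 skeletal muscle genes, control 2 had 54.9 CPM and icKO 1 had 33.6 CPM, against 4.80 to 15.2 CPM in the others. The glial gene Gfap was at 29.7 CPM in control 4 and at 0.449 to 1.92 CPM in the others. The spinal cord marker Slc6a5 was also highest in control 4, at 0.618 CPM from 12 counts, against at most 0.116 CPM in icKO. Chat and Mog were at 0.258 and 0.206 CPM in control 4, and at up to 0.155 and 0.164 CPM in icKO. With at most 5 counts in any library, Chat and Mog do not set control 4 apart. Mnx1 and Olig2 were at no more than 0.0696 CPM in any library. The part of spinal cord tissue in control 4 was not tested. Nerve injury genes were high in icKO 2 and control 1, where 13 of them summed to 772 and 771 CPM, against 470 to 562 CPM in the other 7 libraries. Library icKO 4 had 3.58 CPM of Y-linked transcripts beside 389 CPM of Xist, and the 9 libraries split into 4 with high and 5 with low Y-linked counts, with both groups in each set.

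The sequences of the members show how far their reads can be told apart. The 4 alpha2delta coding sequences shared 58.2% to 67% of aligned bases in pairs, and the longest identical stretch between any pair was 17 bases. Their best known common feature is the metal ion-dependent adhesion site of the von Willebrand factor A domain, which alpha2delta subunits need to bring channels to the surface. The 45 bases around it are shown 5′ to 3′ because all 4 members carry this site, with the codons of its metal-binding aspartate and serines in capitals (GENCODE transcripts, build mm10).
Cacna2d1: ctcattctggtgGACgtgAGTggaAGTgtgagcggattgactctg
Cacna2d2: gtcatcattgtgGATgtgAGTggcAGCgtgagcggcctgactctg
Cacna2d3: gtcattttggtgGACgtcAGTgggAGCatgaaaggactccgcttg
Cacna2d4: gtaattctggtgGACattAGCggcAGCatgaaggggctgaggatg
Over the whole coding sequence, Cacna2d3 and Cacna2d4 formed the pair of highest identity, followed by Cacna2d1 and Cacna2d2 at 65%. The stretches are coding exon sequence on the plus strand at chr5:16266721-16267403 (exons 9 and 10), on the plus strand at chr9:107513088-107513260 (exons 9 and 10), on the minus strand at chr14:29346953-29346997 (exon 8) and on the plus strand at chr6:119268230-119268274 (exon 8), in that order.

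The 4 beta subunit coding sequences were closer to each other, with 69.5% to 73.5% of aligned bases identical and a longest identical stretch of 24 bases. Among the 45-base stretches that start at a codon of Cacnb3, the one with the fewest differences from the other 3 genes is shown. Bases that differ from Cacnb3 are in capitals.
Cacnb3: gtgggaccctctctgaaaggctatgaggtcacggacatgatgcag
Cacnb1: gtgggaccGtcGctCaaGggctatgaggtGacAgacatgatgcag
Cacnb2: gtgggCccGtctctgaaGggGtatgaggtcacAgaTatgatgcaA
Cacnb4: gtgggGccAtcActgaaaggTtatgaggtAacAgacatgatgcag
Even here Cacnb1 and Cacnb4 each differed from Cacnb3 at 6 bases and Cacnb2 at 7. Each stretch spans an intron, at chr15:98641231-98641417 (plus strand), chr11:98009899-98010322 (minus strand), chr2:14971616-14972079 (plus strand) and chr2:52464651-52465624 (minus strand). No run of 50 bases was shared between any of the 8 members' transcripts. With genes outside the family, shared runs of that length made up 0.665% or less of the runs in 6 members, 5.9% in Cacnb2 and 15% in Cacnb4. The antisense gene A430018G15Rik covers 16% of the exon bases of Cacnb4, and it was itself counted at no more than 0.567 CPM. The sources used here do not say whether counting used the strand, so reads of the 2 genes could not be separated with certainty.

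None of the auxiliary subunit genes passed the test for a difference between icKO and control. Of the 8 members, 7 were expressed highly enough to be tested and Cacna2d4 was not. Among the 7, 0 passed edgeR's quasi-likelihood test at an adjusted p of 0.05, against 0.852% of the 17258 genes tested (0.475% higher and 0.377% lower in icKO), and 1 had an unadjusted p under 0.05 (14.3%, against 11.1% of all genes tested). DESeq2 also called 0 of the members, against 2.41% of the 17467 genes to which it gave an adjusted p. The icKO and control libraries overlapped for all 7, and 4.5% of all tested genes had no overlap. With 7 genes and shares this low, counts of 0 are not particular to the members. Log2 fold changes (icKO minus control) ran from -0.21 to 0.06 with a median of -0.05, beside a median of -0.00076 over all genes tested, and 2 were above and 5 below 0. The 95% intervals of the 7 genes together spanned folds from 0.75 to 1.19, so that larger differences in either direction lay outside the interval of every tested member.

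**Figure D1:**
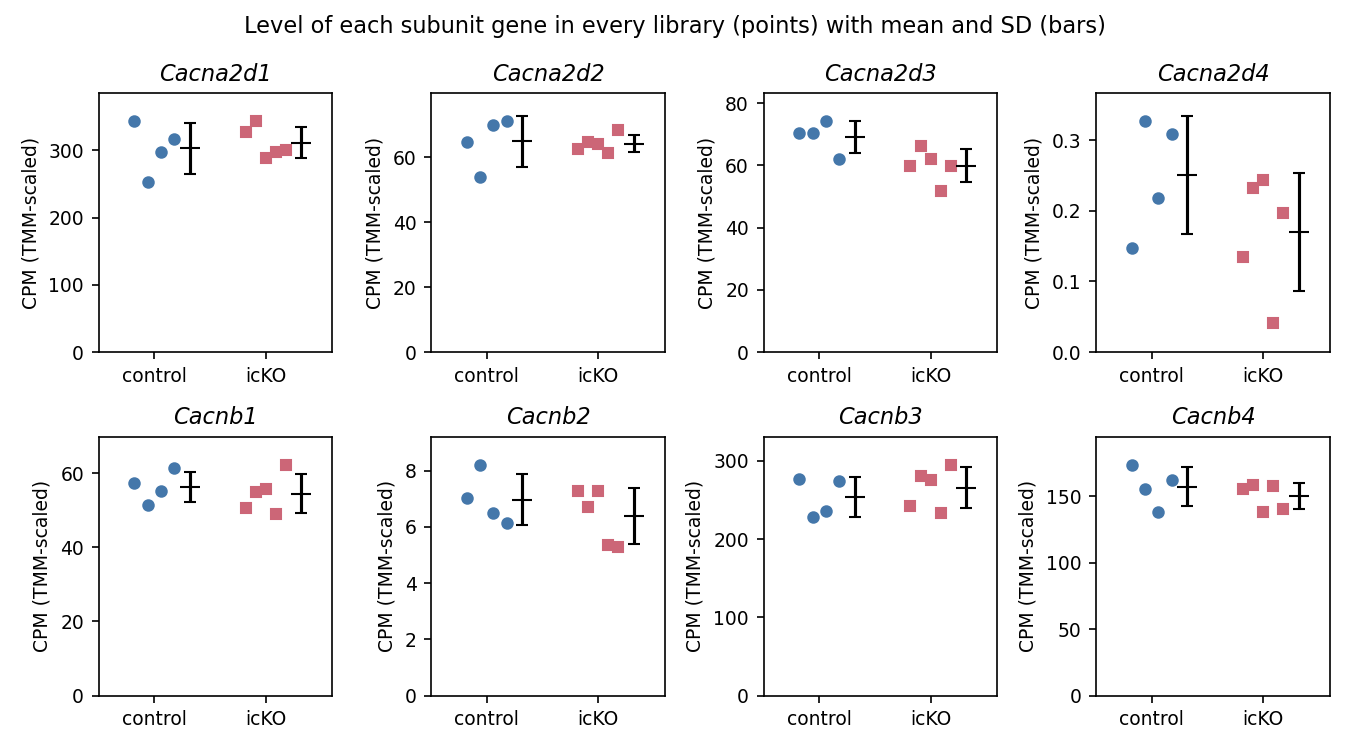
Level of each of the 8 genes in every library, in CPM on a linear axis from 0, with control libraries as circles, icKO libraries as squares, and the mean with its SD as bars beside them. The groups overlap in every panel, including Cacna2d3, where control lies at 61.9 to 74.2 CPM and icKO at 51.9 to 66.4 CPM, and the highest Cacna2d4 value is 0.327 CPM.

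Cacna2d1 encodes alpha2delta-1, the gabapentin-binding subunit known to rise in dorsal root ganglia after nerve injury, and it was the most abundant alpha2delta transcript. It lies at chr5:15934691-16374511 on the plus strand (ENSMUSG00000040118). Control libraries 1 to 4 held 343, 253, 298 and 317 CPM, and icKO libraries 1 to 5 held 327, 343, 289, 297 and 299.8 CPM. Control 2 was the lowest of all 9. Control 1 and icKO 2, the libraries high in injury genes, were the highest of their groups and nearly level. The means were 303 ± 38.2 CPM (SD, n = 4) in control and 311 ± 22.7 CPM (SD, n = 5) in icKO, a log2 fold change of 0.04 (SE 0.09, 95% interval -0.15 to 0.23), with edgeR adjusted p = 0.915. Without control 2 the log2 fold change was -0.037, so the sign of this small difference rested on that library. Without icKO 2 and control 1 it was 0.07 (SE 0.09, edgeR adjusted p = 0.883).

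Cacna2d2 encodes alpha2delta-2, the other gabapentinoid-binding subunit, whose loss in mice is known to cause ataxia and seizures. The gene lies at chr9:107399612-107529343 on the plus strand (ENSMUSG00000010066). Its control libraries held 64.6, 53.8, 69.9 and 71.1 CPM and its icKO libraries 62.4, 64.8, 64.1, 61.2 and 68.4 CPM. All icKO libraries fell within the range of the controls. The log2 fold change was -0.014 (SE 0.08, 95% interval -0.18 to 0.15), with edgeR adjusted p = 0.977, and its sign changed without icKO 4, control 3 or control 4.

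Cacna2d3 encodes alpha2delta-3, which does not bind gabapentin with useful affinity and is known from fly and mouse studies for a role in the sensing of noxious heat. It had the smallest p of the members. The gene is the longest of the 8, at chr14:28904943-29721864 on the minus strand (ENSMUSG00000021991). Control libraries 1 to 4 held 70.3, 70.3, 74.2 and 61.9 CPM, and icKO libraries 1 to 5 held 59.7, 66.4, 62.0, 51.9 and 59.8 CPM. Control 4 lay below icKO 2 and icKO 3, and the other 3 controls lay above every icKO library. Means were 69.2 ± 5.16 CPM for control (SD, n = 4) and 59.9 ± 5.26 CPM for icKO (SD, n = 5), and the log2 fold change was -0.21 (SE 0.07, 95% interval -0.36 to -0.05). With an edgeR p of 0.0141 unadjusted and 0.274 adjusted it did not pass, and it ranked 886 by p among the 17258 genes. The log2 difference was -0.20 among the libraries high in Y-linked counts (2 per group) and -0.19 among those low in them (3 icKO, 2 control). Leaving out 1 library at a time gave values from -0.25 (without control 4, adjusted p = 0.154) to -0.16 (without icKO 4, adjusted p = 0.48).

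Cacna2d4 encodes alpha2delta-4, known as the auxiliary subunit of photoreceptor calcium channels in the retina. The gene lies at chr6:119236526-119352407 on the plus strand (ENSMUSG00000041460). It had 4, 8, 6 and 6 counts in control libraries 1 to 4 and 4, 6, 7, 1 and 5 counts in icKO libraries 1 to 5. These counts are close to the floor of 3, and 1 library was below it. The sums were 24 counts over the controls and 23 over the icKO libraries. A difference between the groups was not detectable at this depth: fitted with no filter on low counts, its log2 fold change was -0.50 with a 95% interval of -1.51 to 0.51.

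**Figure D2:**
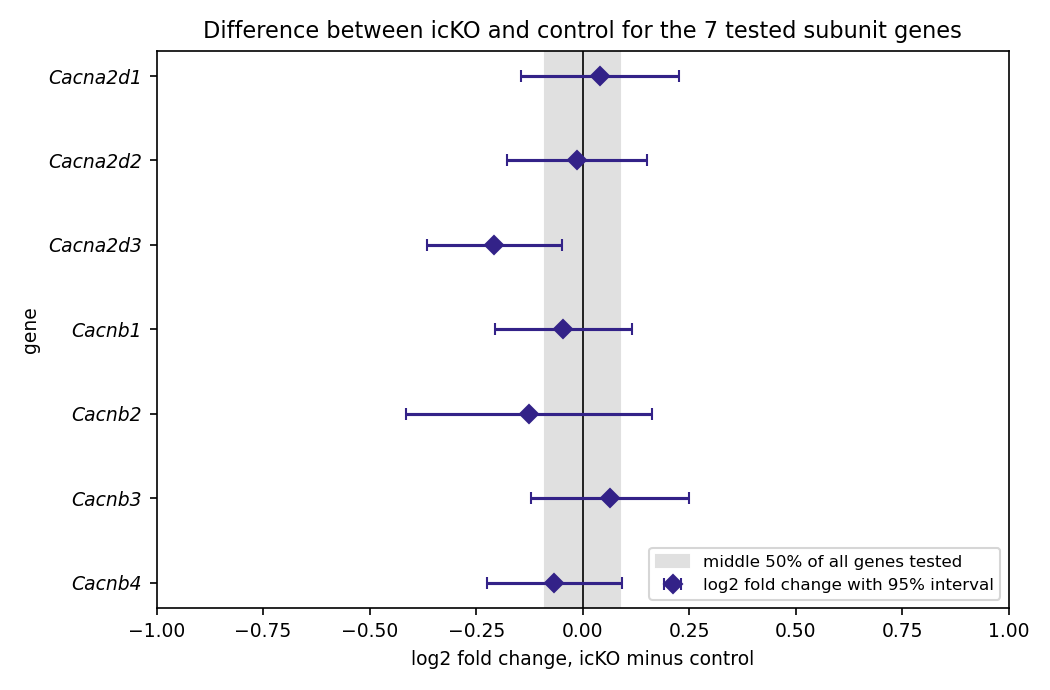
Log2 fold change (icKO minus control, horizontal axis) of the 7 tested genes with 95% intervals from edgeR's quasi-likelihood fit, beside a grey band holding the middle 50% of all genes tested. Cacna2d3, at -0.21, is the gene whose interval does not include 0, and 5 of the 7 estimates lie within the band.

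No beta subunit gene passed either. Cacnb3, which encodes beta-3, a subunit known to pair with N-type channels in neurons, had the highest level per length of all 8 genes and lies at chr15:98630840-98644529 on the plus strand (ENSMUSG00000003352). Control libraries held 277, 228, 236 and 275 CPM and icKO libraries 242, 281, 276, 234 and 295 CPM. Both groups held high and low libraries. The log2 fold change was 0.06 (SE 0.09, 95% interval -0.12 to 0.25), with edgeR adjusted p = 0.855.

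Cacnb4 encodes beta-4, the subunit mutated in the lethargic mouse, at chr2:52428320-52676831 on the minus strand (ENSMUSG00000017412). Its control libraries held 174, 155, 138 and 162 CPM and its icKO libraries 156, 159, 139, 158 and 141 CPM. The lowest library of each group was at almost the same level. At -0.07 (SE 0.07, 95% interval -0.22 to 0.09) its log2 fold change had an edgeR adjusted p of 0.815.

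Cacnb1 encodes beta-1, the beta subunit of the skeletal muscle calcium channel, which neurons also make in other splice forms, at chr11:98001508-98023034 on the minus strand (ENSMUSG00000020882). The control libraries held 57.2, 51.3, 55.2 and 61.3 CPM and the icKO libraries 50.6, 54.8, 55.7, 49.1 and 62.3 CPM. Of the 2 libraries with the most muscle transcripts, control 2 was the lowest control and icKO 1 the second lowest icKO library. The part of muscle transcripts in the level of Cacnb1 was not tested. Its log2 fold change was -0.05 (SE 0.07, 95% interval -0.21 to 0.12, edgeR adjusted p = 0.885).

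Cacnb2 encodes beta-2, best known as the main beta subunit of the heart, at chr2:14603088-14987908 on the plus strand (ENSMUSG00000057914). It was the lowest of the tested members, with 7.04, 8.21, 6.49 and 6.13 CPM in control libraries and 7.27, 6.70, 7.28, 5.35 and 5.29 CPM in icKO libraries, from 119 counts upward. Libraries icKO 4 and icKO 5 lay below all controls and the other 3 icKO libraries lay within their range. The log2 fold change was -0.13 (SE 0.13) with the widest interval of the 7, -0.42 to 0.16, and edgeR adjusted p = 0.807.

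No tested member passed a test of whether its fold change differed between the libraries with low and high Y-linked counts. Differences of the log2 fold change (low minus high) ran from -0.31 for Cacnb2 to 0.13 for Cacna2d2, with unadjusted edgeR p-values of 0.275 and 0.439 for the interaction term and an adjusted p of 1.0. The interaction passed in 0% of all 17258 genes and 282 of them (1.63%) had an unadjusted p under 0.05, so a count of 0 is not particular to the members. Each set held 2 or 3 libraries per group.

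Levels of different genes were compared per length, as CPM per kb of annotated exon bases. Cacna2d1 had 24.4 ± 3.08 CPM per kb in control (SD, n = 4), Cacna2d2 had 8.16 ± 0.994, Cacna2d3 had 7.93 ± 0.591 and Cacna2d4 had 0.0264. As shares of the summed alpha2delta level, Cacna2d1 made up 60.1% ± 2.58 in control (SD, n = 4) and 62.6% ± 1.73 in icKO (SD, n = 5). Cacna2d1 led in every library, with a lowest share of 57.8%. Cacna2d2 made up 20.1% ± 1.48 in control and 20.2% ± 1.23 in icKO, and Cacna2d3 made up 19.7% ± 2.56 in control and 17.2% ± 0.995 in icKO. Their order depended on the length used. Per length of the longest coding transcript, Cacna2d3 held 26.7% and Cacna2d2 15.8% in control, so the 2 genes cannot be ranked.

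Among beta genes, Cacnb3 had 63.4 ± 6.35 CPM per kb in control (SD, n = 4), Cacnb4 had 17.6 ± 1.67, Cacnb1 had 12.4 ± 0.918 and Cacnb2 had 0.527 ± 0.0686. The share of Cacnb3 was 67.5% ± 0.957 in control and 69.2% ± 1.94 in icKO. Cacnb4 followed with 18.7% ± 1.09 in control and 17.7% ± 2.17 in icKO, and Cacnb1 with 13.3% ± 0.667 and 12.6% ± 0.452. In both groups the lowest Cacnb4 share, 15.2% in icKO and 17.7% in control, was above the highest Cacnb1 share, 13.3% in icKO and 14.0% in control. Cacnb2 held 0.567% in control and 0.507% in icKO. With the longest coding transcript as the length the order of the means was the same, but Cacnb4 and Cacnb1 overlapped in icKO (11.8% to 15.9% and 11.5% to 12.7%). Summed over each family, alpha2delta genes had 40.5 ± 3.70 CPM per kb in control and 40.02 ± 2.29 in icKO, and beta genes had 93.9 ± 8.42 in control and 95.5 ± 6.98 in icKO, differences below the spread between libraries.

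**Figure D3:**
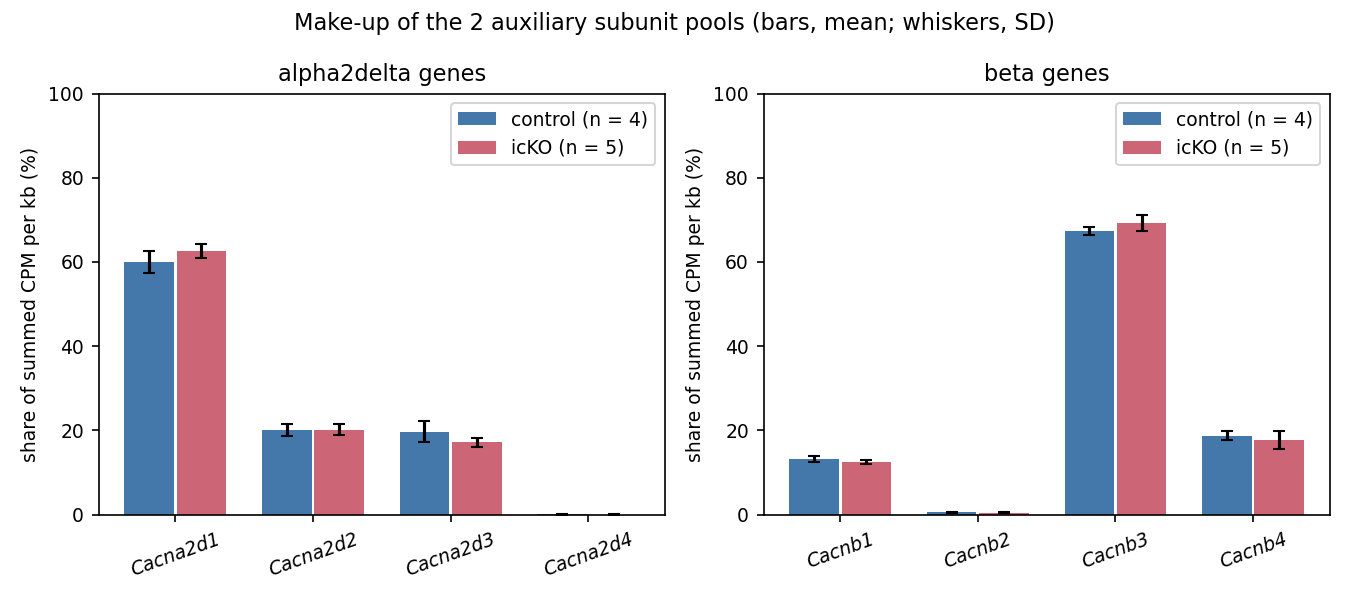
Share of each gene in the summed CPM per kb of its family (vertical axis, percent), with the mean of 4 control and 5 icKO libraries as bars and the SD as whiskers. Cacna2d1, at 60.1% and 62.6%, and Cacnb3, at 67.5% and 69.2%, lead their families in both groups.

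Among the genes listed as other channel subunits and their relatives, regulators and partners, none passed in the edgeR fit. In the DESeq2 fit, 1 of the 51 with an adjusted p, Cabp1, passed, where 2.41% of all genes did. The 4 lists hold 56 genes, of which 51 were tested with edgeR, and 7 had an unadjusted p under 0.05 (13.7%, against 11.1% of all genes tested). Their median log2 fold change was -0.06, with 34 below and 17 above 0. Libraries did not overlap for 3 of the 51 genes, against 4.5% of all tested genes.

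Of 10 pore subunit genes, 8 were tested and 0 passed, with 1 lower at an unadjusted p under 0.05 and a median of -0.05. That gene was Cacna1a, the pore of P/Q-type channels, at 128 ± 11.2 CPM in control and 111 ± 8.66 CPM in icKO (log2 fold change -0.21, SE 0.07, edgeR adjusted p = 0.285). The T-type channel genes Cacna1i and Cacna1g were at 0.22 (SE 0.18) and -0.38 (SE 0.32), with edgeR adjusted p-values of 0.732 and 0.738. Of 9 genes for gamma subunits and the alpha2delta-like Cachd1, 6 were tested and 0 passed, with a median of -0.0023. Cacng2, which encodes the AMPA receptor partner stargazin, was at -0.25 (SE 0.10, adjusted p = 0.329), Cacng5 at -0.09 (SE 0.10) and Cachd1 at 0.06 (SE 0.07).

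Of 26 genes for channel regulators and release site partners, all were tested and 0 passed, with 4 lower at an unadjusted p under 0.05 and a median of -0.08. Cabp1, a calcium-binding protein gene whose product modulates calcium channels, came nearest, with controls at 113, 125, 123 and 129 CPM and icKO libraries at 88.4, 99.1, 106, 87.6 and 109 CPM. Its groups did not overlap, and its log2 fold change was -0.32 (SE 0.07, edgeR adjusted p = 0.0682). It passed with DESeq2 (adjusted p = 0.0047) and with no count filter (adjusted p = 0.0177), and the other 15 alternatives left it above the threshold. The calmodulin gene Calm3 was at -0.17 (SE 0.07, adjusted p = 0.366) in the same edgeR fit. Of 11 genes for alpha2delta partners, which include thrombospondins and neurexins, 0 passed and the median was 0.0054. Nrxn3, a presynaptic adhesion gene, was at 0.14 (SE 0.05, adjusted p = 0.291), and the thrombospondin genes Thbs4 and Thbs3 were at 0.25 (SE 0.18) and 0.14 (SE 0.11).

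**Figure D4:**
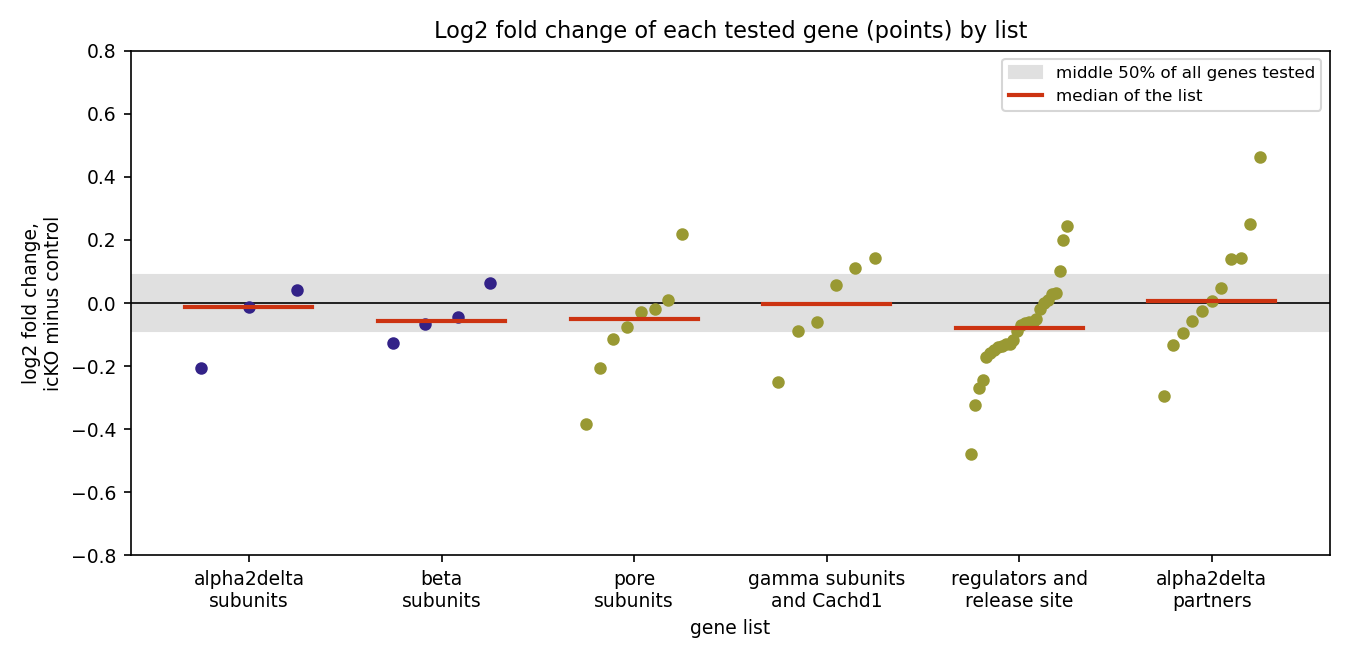
Log2 fold change (icKO minus control, vertical axis) of each tested gene in the alpha2delta, beta, pore, gamma, regulator and partner lists, with the median of each list as a red line and the middle 50% of all genes tested as a grey band. The medians, from -0.08 to 0.0054, all lie within the band.

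Because Cacna2d1 is known to respond to nerve injury, injury genes were read beside it. Of 13 injury genes, 12 were tested with edgeR and 0 passed, as did 0 of the 10 with an adjusted p in DESeq2, with 1 higher at an unadjusted p under 0.05 and a median of -0.04. The adhesion gene Flrt3 was at 0.36 (SE 0.12, adjusted p = 0.255), the cytokine gene Csf1 at -0.29 (SE 0.14, adjusted p = 0.471) and the neurotensin gene Nts at 0.85 (SE 0.44, adjusted p = 0.52). The summed level of the list was 562, 772, 470, 509.7 and 498 CPM in icKO libraries 1 to 5 and 771, 485, 477 and 475 CPM in control libraries 1 to 4. In icKO 2 and control 1, Sprr1a, a growth-associated injury gene, was at 35.5 and 25.1 CPM, against 0 to 4.04 CPM in the others. The injury transcription factor gene Atf3 was at 30.9 and 43.8 CPM there, against 6.12 to 14.2 CPM in the others. Both genes were singled out after their values were seen. These 2 libraries also held the highest Cacna2d1 levels of the 9, and the part of injury genes in the level of Cacna2d1 was not tested beyond leaving both libraries out.

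Of the markers of neuron classes, 1 of 5 A-fibre genes rose in the edgeR fit, where 0.475% of all genes tested did. It was the neurotrophin-3 receptor gene Ntrk3, from 374 ± 67.2 CPM in control to 527 ± 18.5 CPM in icKO (log2 fold change 0.49, SE 0.10, edgeR adjusted p = 0.0342). That call was lost in 8 of 17 alternatives, with adjusted p-values up to 0.12: the replicate block, the removal of icKO 1, icKO 3, icKO 4, icKO 5, control 1 or control 3, and that of icKO 2 with control 1. The other 4 A-fibre genes lay below 0, and the median of the 5 was -0.20. In the same edgeR fit the neurofilament gene Nefh was at -0.36 (SE 0.08, adjusted p = 0.0763, and 0.00614 with DESeq2) and the sodium channel gene Scn1a at -0.15 (SE 0.06, adjusted p = 0.364), while Pvalb and Spp1 were at -0.20 (SE 0.10) and -0.21 (SE 0.13). Of 7 nociceptor genes 0 passed with edgeR or DESeq2, with Tac1 at 0.37 (SE 0.12), P2rx3 at 0.19 (SE 0.10) and Scn10a at -0.14 (SE 0.10). Median log2 fold changes were -0.08 over 6 pan-neuronal genes, -0.04 over 4 satellite glia genes, -0.0081 over 4 Schwann cell genes and 0.17 over 4 macrophage genes, with 0 passing in each. The 6 skeletal muscle genes had a median of -0.92 and the 3 erythroid genes 0.57, again with 0 passing, and of 6 spinal cord genes only Gfap was tested, at -2.33 (SE 0.93, edgeR adjusted p = 0.358) and at 0.56 without control 4. The part of these differences in the members' values was not tested beyond leaving out the libraries concerned.

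The library profiles of Cacna2d3 and Cacna2d1 were each compared with 9911 protein-coding genes of at least 10 CPM, by the root mean square difference of centred log2 CPM over the 9 libraries. The nearest to Cacna2d3 were Kdm8, Asb13 and Amigo3, at 0.045 to 0.046, where the median gene was at 0.17. The nearest to Cacna2d1 were Mbtps2, Pde1c and Plppr4, at 0.048 to 0.057, where the median gene was at 0.16. These likenesses are over 9 libraries that share their scaling, and they are descriptive.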

How the data were processed

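The deposited files hold raw read counts per Ensembl gene, 1 file per library. The submitters' processing notes list mm10 as the genome and, as tools of the authors, featureCounts 1.5.0-p1, STAR 2.5.2a and bcl2fastq 2.20.0.422. No source used here gives the annotation release or how strand and multi-mapping reads were handled. All 55536 identifiers matched GENCODE M21 on that build, the source of symbols, exon lengths, positions and transcript sequences. Groups came from the sample titles.

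After filterByExpr (at least 10 counts, total at least 15), 17258 genes were tested with TMM scaling and the quasi-likelihood test of edgeR 4.0.16 (R 4.3.3), with Benjamini-Hochberg adjustment over all of them and a threshold of 0.05. Each SE was derived from the log2 fold change and F, as their ratio |log2 fold change|/√F. Alternatives included DESeq2 1.42.0. The scripts were tested on simulated data. Counts of same-group libraries differed beyond sampling noise (chi-square/df 6.09 to 23.5), so each counted once. Counting error alone sets the stated floors. Named genes were Prdm12, the 8 members, in other lists those past the threshold with the smallest p values up to 3 per list, and the 3 nearest profiles of the member with the smallest p and the most abundant one. The result for 1 gene that this rule names is not reported here. Pan-neuronal, glial, macrophage, muscle, erythroid and sex-linked lists are given by medians or sums. The members and lists were chosen with earlier results of these data known. The interaction with Y-linked counts and the removal of 4 libraries together, or of the 2 high in injury genes, were chosen after seeing the data.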

Additional observations from a re-analysis of the deposited data

How the results depend on the processing

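Over 17 alternatives for each of the 7 tested members, 0 of 119 fits passed the threshold. Cacna2d3, Cacnb2, Cacnb3 and Cacnb4 kept their direction in all 17. The small differences of the other 3 did not: Cacna2d2 was at 0.00084 with library size alone, and without the 4 libraries with muscle, Gfap or mixed Y-linked counts (chosen after seeing the data) Cacna2d1 was at -0.036 and Cacnb1 at 0.044. Leaving out 1 library at a time gave -0.037 to 0.10 for Cacna2d1 and -0.093 to 0.035 for Cacna2d2. Cacna2d3 had adjusted p-values of 0.154 to 0.579 over its alternatives, and -0.19 without those 4 libraries. Of other named genes, Cacng5 ranged from -0.15 to 0.033 (without control 3) and Gfap from -2.73 to 0.56 (without control 4) as single libraries were left out, and Gfap was at 0.0090 without the 4 libraries. Nefh passed in 4 of 17 alternatives, and Tac1 and Gfap in 1, with no count filter (adjusted p = 0.0476 and 0.0438).

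The count over all genes, 147 (82 higher, 65 lower), was 393 with no count filter (172 higher, 221 lower), 421 with DESeq2 (194 and 227), 40 without the 4 libraries (25 and 15), and 103 without icKO 2 and control 1, the libraries high in injury genes (64 and 39, also chosen after seeing the data). Over single libraries left out it ranged from 78 to 175 (45 to 85 higher, 33 to 90 lower), and it was 78, 89, 94 and 95 when icKO 1, 3, 4 or 5 was left out and 92 when control 3 was. With the replicate number as a block it was 48 (28 higher, 20 lower), and Cacna2d3 was at -0.21 with an adjusted p of 0.316. Same-numbered libraries deviated with correlations of -0.18 to 0.17 and no icKO library correlated best with its own number, so the numbers give no sign of pairing. The cause of these differences was not tested.

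Per length of the longest coding transcript, shares in control and icKO were 57.5% and 60.5% for Cacna2d1, 15.8% and 16.02% for Cacna2d2, 26.7% and 23.5% for Cacna2d3, 1.37% and 1.22% for Cacnb2, 71.2% and 72.9% for Cacnb3, and 14.7% and 13.8% for Cacnb4, with Cacnb1 at 12.05% in icKO. Too few counts kept Cacna2d4 out of the test.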
